A study of Mus musculus with 5 samples.

Results

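The comparison concerned 2 of the 5 RNA-seq libraries of the study, both from BVE-Ctnnb1wt (BVE) cells and told apart by thyroid-stimulating hormone (TSH). They were taken by their labels, which name 1 library without TSH and 1 with TSH, both at passage label 20. BVE cells are a line grown out of a mouse thyroid tumor driven by the BRAF mutant V600E, with an intact Ctnnb1 gene, which encodes β-catenin. The other 3 libraries came from BVE-Ctnnb1null lines, which carry the same mutant and a deletion of Ctnnb1, and had the passage labels 8, 11 and 7. The library labelled BVE-Ctnnb1null replicate 1 is also named as grown without TSH, and the labels state no TSH status for replicates 2 and 3. The culture protocol is the same text for all samples: medium with 4 mU/mL bovine TSH, more than 6 months of culture, and about 25 passages for BVE and 20 for the null lines. The time with or without TSH, the promoter that drove the mutant and the age of the donor mice were not given in the sources used here. Both BVE libraries are titled as controls, and the question here was which RNAs differed between them. With 1 library a side there was no replicate, so an effect of TSH cannot be told apart from any other difference between the 2 cultures.

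The libraries held 30432737 estimated counts without TSH and 30713079 with TSH. Values are FPKM (fragments scaled to transcript length and library size) summed over the transcripts of a gene. The 2 libraries were compared over the 9613 genes with at least 1 FPKM in the higher of them. Each ratio is FPKM + 0.1 with TSH over FPKM + 0.1 without TSH, so a negative log2 ratio means lower with TSH, and a 2-fold difference was counted as a difference. A 95% counting interval (exact, Clopper-Pearson) covers the counting error of the reads alone, not the spread between cultures.

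TSH is the pituitary hormone that controls the thyroid follicular cell. It binds the receptor encoded by Tshr, which acts through the G protein Gs to raise cAMP, and cAMP releases protein kinase A to phosphorylate CREB at target promoters. In the normal gland this pathway maintains the genes of iodide uptake and hormone synthesis and allows growth, whereas mutant BRAF signals through MEK and ERK and is known to lower the thyroid genes.

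The TSH receptor itself was barely detected in either BVE library. Tshr had 5 counts without TSH (0.10 FPKM) and 3 counts with TSH (0.02 FPKM), at or near the floor of 3 counts below which no fold is given. Of 27 thyroid follicular genes, 23 were under 1 FPKM in both BVE libraries. Tg, the thyroglobulin gene, was at 0.80 FPKM without and 0.86 with TSH. Of the transcription factors of the follicular cell, Pax8 was at 0.40 and 0.17 FPKM and Foxe1 at 0 and 0.03 FPKM. Nkx2-1 was the most abundant gene of the list, at 9.21 FPKM without and 15.0 FPKM with TSH (log2 ratio 0.70). Slc5a5, the sodium-iodide symporter gene, went the other way, from 1.03 to 0.36 FPKM (log2 ratio -1.30). Of the 4 genes compared, it was the only member past 2-fold. With 9.46% of all genes 2-fold lower, 1 of 4 is no result about the list. Hhex (3.71 and 4.14 FPKM) and Ano1 (3.83 and 5.19 FPKM) were within 2-fold. Against the labelled cell type, thyroid epithelial cells, Nkx2-1 and Hhex were thus above 1 FPKM in both libraries and Tshr and Foxe1 at or near 0.

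Markers of other cell types were mostly within 2-fold in the BVE pair, with the leukocyte list as the exception. The keratin genes Krt8 (634 FPKM without and 1104 FPKM with TSH) and Krt18 (321 and 457 FPKM) were abundant, whereas the epithelial adhesion genes Cdh1 (1.94 and 1.62 FPKM) and Epcam (5.04 and 4.61 FPKM) were low. None of the 18 epithelial genes compared passed 2-fold in either direction, against 13.6% of all genes, but 16 lay above the median of all genes given below, and relative to that median 3 (Pkp1, Krt14 and Krt8) were 2-fold higher. The fibroblast list summed to 290.2 FPKM without and 255 FPKM with TSH over 12 genes. Its most abundant gene was Col1a1, at 161 FPKM without TSH and 118 with TSH. Col1a2 (49.4 and 51.1 FPKM) and Col3a1 (70.3 and 77.6 FPKM) were also expressed. The receptor genes Pdgfra (3.54 and 2.71 FPKM) and Pdgfrb (5.22 and 5.06 FPKM) were lower but above 1 FPKM in both libraries. Dcn, Lum and Thy1 were at 0.24 FPKM or less in both libraries. Over 22 leukocyte markers the sum was 13.3 FPKM without and 17.8 FPKM with TSH, and the defining genes Ptprc and Cd3e were at 0 in both. All 3 of its genes compared passed 2-fold, 2 higher and 1 lower. Cd68, a lysosomal protein of macrophages and the most abundant of that list, was at 6.09 and 14.2 FPKM, Lyz2 at 0.49 and 1.39 FPKM, and Cd74 at 5.57 and 1.40 FPKM. The endothelial list summed to 41.3 and 34.7 FPKM, nearly all from Egfl7 (38.3 and 31.1 FPKM), with Kdr at 0 in both libraries. Cd34, at 464 and 183 FPKM, was not in this list and is given below. The C cell list (3.17 and 2.75 FPKM in sum, most from Syp), the parathyroid list (0.06 and 0.16 FPKM) and the adipocyte and muscle list (2.01 and 2.37 FPKM) were close to 0. A share of other cells and a lower level per cell cannot be told apart in bulk RNA, and the part of the leukocyte and fibroblast values in the results below was not tested.

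**Figure D1:**
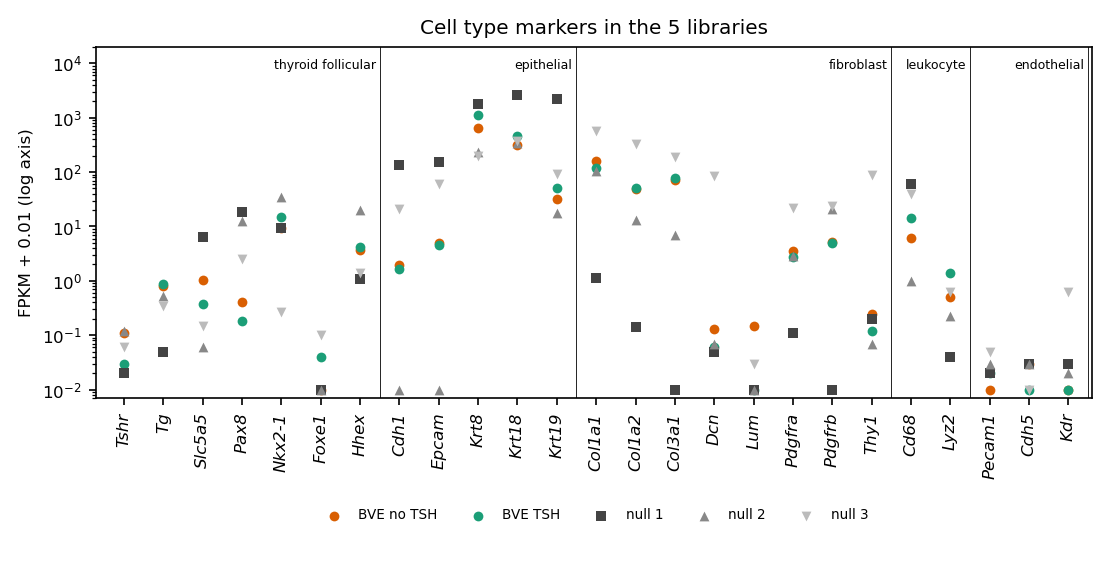
FPKM + 0.01 on a log axis for markers of thyroid follicular, epithelial, fibroblast, leukocyte and endothelial cells, 1 point per library (orange, BVE without TSH; green, BVE with TSH; gray squares and triangles, BVE-Ctnnb1null replicates 1, 2 and 3). The orange and green points lie close together for most markers, whereas the null lines spread widely, as for Krt19 at 31.4 and 51.1 FPKM in BVE against 17.8 to 2244 FPKM in the null lines.

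The 2 BVE libraries were much closer to each other than any other pair in the series. Of the 9613 genes compared, 395 (4.11%) were at least 2-fold higher with TSH and 909 (9.46%) at least 2-fold lower, together 1304 (13.6%). At 4-fold the counts were 66 higher and 99 lower. Across these genes the log2 levels correlated at Pearson's r = 0.95, with genes not being independent replicates. The median log2 ratio was -0.20, and relative to that median 597 genes were higher and 542 lower. Trimmed mean scaling of the counts (TMM) likewise gave 597 higher and 561 lower, so the excess of lower genes rested on the scaling. For every list below, its median is therefore read beside -0.20. The counting interval lay off 0 for 377 of the 395 higher and 886 of the 909 lower genes, beside 7593 of all 9613. It was read against 0, without the median subtracted, and not against the 2-fold threshold. Read depth thus left the direction before scaling open for few of the genes past 2-fold. BVE without TSH differed from null replicates 1, 2 and 3 by 2-fold at 50%, 48.3% and 49.9% of the genes, and BVE with TSH at 52%, 54.7% and 54.7%. Among the null lines the shares were 49.8% (1 and 2), 50.6% (1 and 3) and 35.7% (2 and 3).

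**Figure D2:**
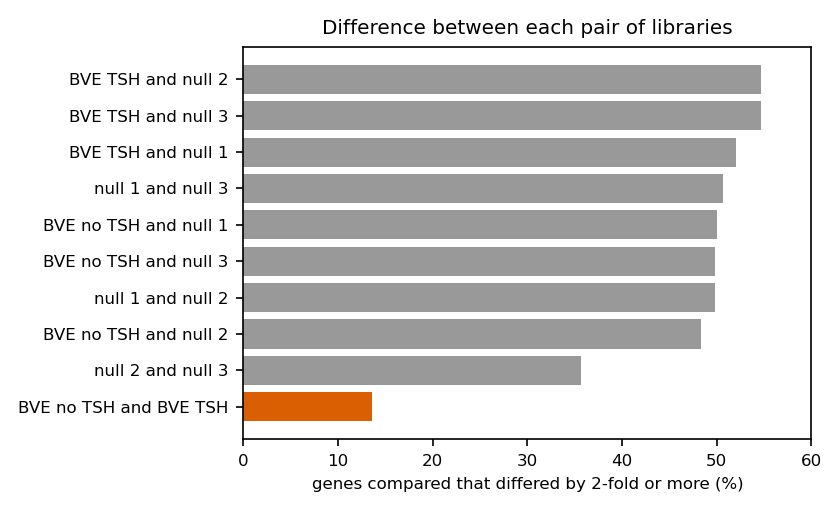
Share of genes that differed by 2-fold or more, in percent of the genes compared, for the 10 pairs of the 5 libraries. The BVE pair (orange bar) is at 13.6%, and the other pairs (gray bars) at 35.7% to 54.7%.

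Gene lists, chosen with earlier results of these data known, separated in both directions within the pair. ATF4 and amino acid stress genes, ERK pathway output genes and immediate early genes had medians below that of all genes, and those of DNA replication and mitosis and of glycolysis had medians above it, with the counts given for each list below. The response genes of the cAMP pathway also had a median below that of all genes.

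**Figure D3:**
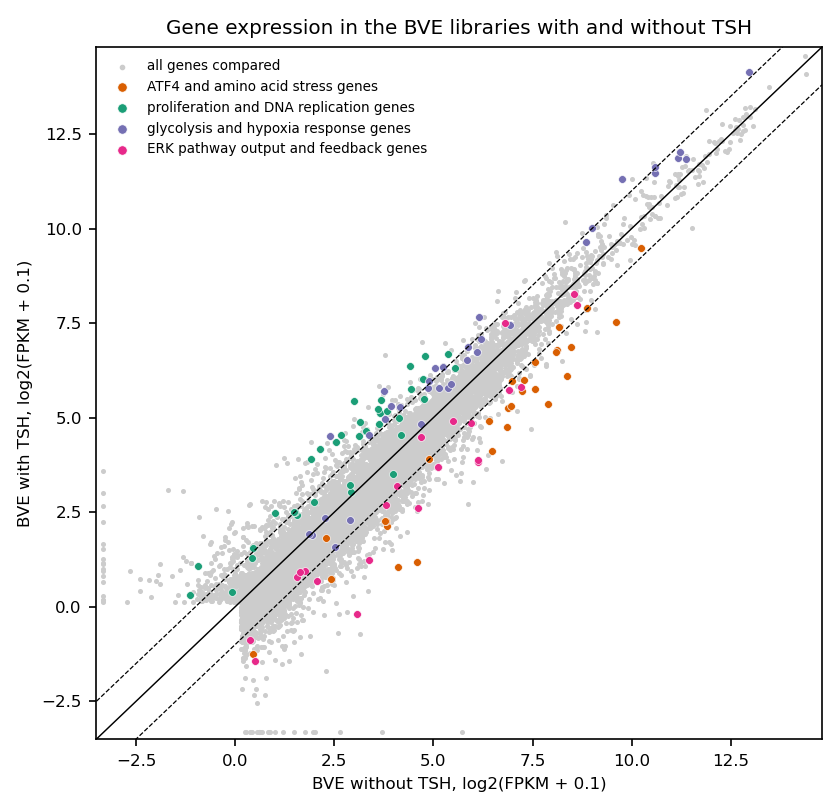
Expression of each of the 9613 genes (gray points) in the BVE libraries without TSH (horizontal axis) and with TSH (vertical axis), as log2(FPKM + 0.1), with 4 gene lists in color. The solid line marks equal levels and the dashed lines 2-fold differences; the ATF4 (orange) and ERK (pink) genes lie mostly below the line, and the proliferation (green) and glycolysis (purple) genes above it.

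**Figure D4:**
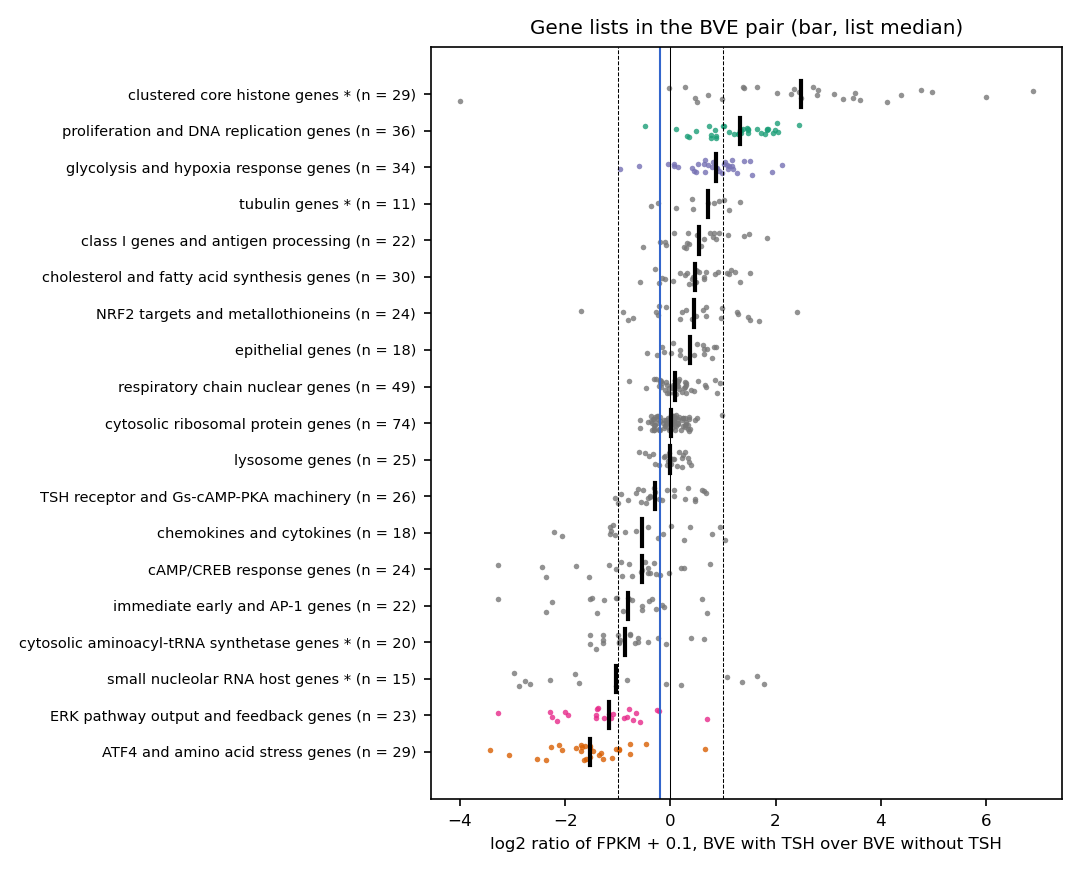
Log2 ratio (BVE with TSH over BVE without TSH) of each gene compared, by list, with a black bar at the list median, a blue line at the median of all genes (-0.20) and dashed lines at 2-fold. Lists marked * were added after their values were seen, and the others were chosen with earlier results of these data known. Medians run from 2.48 for the core histone genes to -1.53 for the ATF4 genes. Most of the histone genes passed the filter only through the library with TSH.

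Of 53 genes of the TSH receptor, Gs, adenylyl cyclases, protein kinase A, phosphodiesterases and CREB, 26 were compared, 0 were 2-fold higher and 1 was 2-fold lower (median log2 ratio -0.30). Over all genes the shares were 4.11% and 9.46%, so for 26 genes these counts are no result about the list. Gnas, which encodes the Gs alpha subunit, was the most abundant at 898 FPKM without and 1245 FPKM with TSH. Prkaca, a catalytic subunit of protein kinase A, was at 31.3 and 43.2 FPKM. Both were within 2-fold. The gene past 2-fold was Prkar2a, a regulatory subunit of the kinase, at 1.48 FPKM without and 0.66 FPKM with TSH (log2 ratio -1.06), and it fell within 2-fold once the median of all genes was subtracted. Pkia, a kinase inhibitor, was at 4.72 and 2.32 FPKM. Rgs2, a regulator of G protein signaling, was at 24.7 and 12.9 FPKM, and Prkar2b at 31.0 and 17.7 FPKM. The remaining 27 genes were under 1 FPKM in both libraries, Creb1 (0.99 and 0.53 FPKM) and Crem (0.98 and 0.46 FPKM) just under it.

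Of 24 known cAMP and CREB response genes compared, 0 were 2-fold higher and 7 were 2-fold lower (5 relative to the median of all genes), with a median of -0.55, against 4.11% higher and 9.46% lower of all genes. At so small a share of higher genes, 0 of 24 is no result about the list. Egr1, an immediate early transcription factor, was lowest, at 8.28 FPKM without and 0.77 FPKM with TSH (786 and 74 counts, 9.63-fold lower). Ereg, which encodes the EGF receptor ligand epiregulin, was at 2.71 and 0.42 FPKM, and Atf3, a stress-induced transcription factor, at 20.1 and 3.81 FPKM. Areg, the amphiregulin gene, was at 53.9 and 15.5 FPKM. These 4 genes also respond to ERK signaling. Vip, a classical CREB target and the most abundant member, was the same in both at 162 and 159 FPKM. Per1, which had the highest ratio of the list, was at 2.81 and 4.82 FPKM (log2 ratio 0.76).

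The cAMP response element TGACGTCA was searched, on both strands, in the 300 bases around each gene start (250 before and 50 after) of RefSeq, build GRCm38.p6. It was in the window of 2 of the 18 cAMP response genes that had one (11.1%), against 3.85% of the 7708 compared genes with a window and 1.79% of all 32851 windows. Both are shown because the element is the known docking site of CREB, with the match in capitals. The list holds known response genes of this pathway, so the share describes the list rather than the pair. The Areg stretch is chr5:91139497-91139586 on the + strand and the Dusp1 stretch chr17:26508567-26508656 on the - strand.
Areg: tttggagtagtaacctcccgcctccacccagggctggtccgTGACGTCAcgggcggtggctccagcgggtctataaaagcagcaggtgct
Dusp1: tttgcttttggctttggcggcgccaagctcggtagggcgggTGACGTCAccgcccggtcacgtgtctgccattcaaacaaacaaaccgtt
With the element 61 and 143 bases before the start sites, Areg was 3.47-fold lower with TSH and Dusp1, an ERK phosphatase, was within 2-fold (16.5 and 14.4 FPKM).

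The ATF4 and amino acid stress genes had the lowest median of all lists described, that is, they were higher without TSH. ATF4 is the transcription factor of the integrated stress response, which cells turn on when amino acids run short or protein folding fails, and its targets make, import and load amino acids. Of 29 genes compared, 23 were 2-fold lower with TSH, against 9.46% of all genes, and 0 were higher (median log2 ratio -1.53). Relative to the median of all genes 21 remained past 2-fold. Only Ddit4 was above the median of all genes, at 57.4 and 91.3 FPKM. Atf4 itself was at 328 FPKM without TSH and 68.1 FPKM with TSH (4.81-fold lower, counting interval of the log2 count ratio -2.32 to -2.21).

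Asns, the asparagine synthetase gene, was at 774 and 185 FPKM, from 45748 and 11063 counts (4.18-fold lower, counting interval -2.09 to -2.03). Psph and Psat1, of the serine pathway, were at 188 and 54.1 FPKM and at 353 and 116 FPKM. Phgdh, the first enzyme of that pathway and the most abundant gene of the list, was within 2-fold at 1205 and 711 FPKM, as was Pycr1, of proline synthesis, at 29.26 and 14.77 FPKM. Cth, which makes cysteine from cystathionine, was at 17.1 and 1.96 FPKM (950 and 110 counts, 8.34-fold lower). Slc7a5, a large neutral amino acid transporter, was at 116 and 26.6 FPKM, and Slc7a11, the cystine transporter, at 1.27 and 0.32 FPKM.

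Fgf21, which encodes a stress-induced hormone, had the lowest ratio of the ATF4 list at 24.1 and 2.15 FPKM (685 and 62 counts, 10.7-fold lower). Trib3, a pseudokinase that feeds back on ATF4, was at 235 and 40.6 FPKM, and Chac1, which degrades glutathione, at 89.5 and 17.2 FPKM. Ddit3, the CHOP gene, was at 190.03 and 88.0 FPKM (log2 ratio -1.11), whereas Ddit4, given above, had a log2 ratio of 0.67. Most of the cytosolic aminoacyl-tRNA synthetase genes, a list chosen after its values were seen, were also on the lower side, with 7 of 20 past 2-fold, against 9.46% of all genes, and a median of -0.87. Of its members 4 are in the ATF4 list as well. Nars was at 450.5 and 157 FPKM and Wars at 150.1 and 52.1 FPKM, whereas Kars (264.6 and 415 FPKM) and Qars (149 and 195 FPKM) were above 0 in log2 ratio. For the mitochondrial synthetases, chosen the same way, 1 of 17 was 2-fold lower, near the share over all genes, and the median was -0.26, close to that of all genes. Hspa9, a mitochondrial chaperone and one of the most abundant genes past 2-fold, was at 536 and 233 FPKM. Of 22 genes in the endoplasmic reticulum chaperone list, 1 was higher (Calr, 739 and 1581 FPKM) and 2 lower. These counts are near the shares over all genes (4.11% and 9.46%). The lower members were Ern1 (4.88 and 1.38 FPKM) and Atf6 (9.52 and 4.68 FPKM), which encode stress sensors and not chaperones. Relative to the median of all genes 4 of the list were higher and 1 lower, where 597 and 542 of the 9613 genes were. The list median of -0.04 was then above 0, as it was after TMM scaling.

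The composite element bound by C/EBP and ATF4 dimers, TGATGNAA on either strand, was in the window of 10 of the 26 ATF4 list genes that had one (38.5%), against 2.53% of the 7708 compared genes and 3.97% of all windows. The genes are targets known for this element, so the share describes the list rather than the pair. Stretches of 90 bases are shown for 4 list members with large differences, each ending before the start site, with the matches in capitals. Fgf21 is chr7:45615581-45615670 on the - strand, Chac1 chr2:119351008-119351097 on the + strand, Asns chr6:7693210-7693299 on the - strand and Slc7a11 chr3:50443631-50443720 on the - strand.
Fgf21: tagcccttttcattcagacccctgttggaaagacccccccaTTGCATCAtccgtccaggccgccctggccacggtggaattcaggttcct
Chac1: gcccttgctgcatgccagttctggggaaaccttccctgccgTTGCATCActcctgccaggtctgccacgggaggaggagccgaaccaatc
Asns: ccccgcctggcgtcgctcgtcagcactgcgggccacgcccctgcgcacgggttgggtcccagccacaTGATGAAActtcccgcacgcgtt
Slc7a11: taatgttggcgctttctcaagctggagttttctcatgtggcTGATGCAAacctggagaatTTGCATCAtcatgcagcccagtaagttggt
Slc7a11 holds 2 matches, on opposite strands, and each of the other stretches 1. Atf4, Cebpg and Ddit3 had a window without a match.

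Many genes that report ERK activity were also lower with TSH. Both libraries carry the mutant BRAF, which acts upstream of ERK. Of 23 genes of ERK pathway output and feedback, 14 were 2-fold lower with TSH (11 relative to the median of all genes), against 9.46% of all genes, and 0 higher, with a median of -1.17. Dusp6, the phosphatase that turns ERK off, was at 69.3 and 14.1 FPKM (6017 and 1234 counts, counting interval -2.39 to -2.21). Fosl1, an AP-1 subunit that ERK stabilizes, was at 69.8 and 14.7 FPKM, and Etv5, an ETS factor, at 10.3 and 2.24 FPKM. Spry4, a feedback inhibitor, was at 1.32 and 0.27 FPKM, and Myc at 34.5 and 13.0 FPKM. Other members of the same families moved less. Dusp4 was at 25.7 and 22.2 FPKM, Ccnd1 (cyclin D1) at 393 and 249.7 FPKM, and Ier3, the single member above 0, at 112 and 182 FPKM. Braf RNA was low in both, at 0.26 and 0.15 FPKM (80 and 47 counts).

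Of 8 genes of the EGF receptor family and its ligands, 3 were 2-fold lower and 0 higher, against 9.46% and 4.11% of all genes (median -0.31). The 3 were ligand genes, Areg and Ereg, given above, and Hbegf (71.7 and 27.5 FPKM). Egfr (6.83 and 5.37 FPKM), Erbb2 (5.26 and 5.17 FPKM) and Erbb3 (1.00 and 0.81 FPKM), all receptor genes, were lower by less than 2-fold, as was the ligand gene Tgfa (1.38 and 1.26 FPKM), and Nrg1 was at 6.62 and 8.05 FPKM. Immediate early and AP-1 genes gave 9 of 22 lower (7 relative to the median of all genes) and 0 higher, against 9.46% and 4.11% of all genes, with a median of -0.80, and 4 of them are shared with the ERK list and 6 with the cAMP list. Jun (80.7 and 43.3 FPKM), Junb (109 and 89.7 FPKM) and Jund (94.4 and 87.2 FPKM) were within 2-fold, whereas Ier2 was at 41.4 and 14.3 FPKM. Odc1, which encodes the rate-limiting enzyme of polyamine synthesis, was the most abundant of all genes at least 2-fold lower with TSH, at 2961 and 1035 FPKM. Other abundant genes on that side were Tnfrsf12a, the TWEAK receptor gene (469 and 228 FPKM), Cd34, a surface sialomucin (464 and 183 FPKM), and the noncoding RNA 2410006H16Rik (562 and 154 FPKM).

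Most genes of DNA replication and mitosis were higher with TSH. Of 36 genes compared, 24 were 2-fold higher, against 4.11% of all genes, and 0 were lower (median log2 ratio 1.33). Relative to the median of all genes 28 were higher. Mcm5, a subunit of the replicative helicase, was at 7.88 FPKM without and 43.5 FPKM with TSH (834 and 4653 counts, 5.46-fold higher). Rrm1 and Rrm2, the subunits of ribonucleotide reductase, were at 21.1 and 81.6 FPKM and at 6.30 and 23.1 FPKM. Ccna2 (cyclin A2) was at 3.67 and 15.0 FPKM, Aurkb (Aurora kinase B) at 4.28 and 18.0 FPKM, and Birc5 (survivin) at 27.5 and 99.0 FPKM. Other members with roles in mitosis had smaller ratios, such as Top2a (topoisomerase II alpha, 2.72 and 5.59 FPKM), and Aurka (Aurora kinase A, 17.4 and 31.5 FPKM) and Hmmr (0.84 and 1.21 FPKM) were within 2-fold. A few further members were nearer to 0, these and the preceding 3 being picked after their values were seen. Ccne1 (cyclin E1) was at 7.50 and 8.11 FPKM, Pcna at 18.1 and 23.1 FPKM, and Cdt1, which loads the helicase, at 15.8 and 11.3 FPKM, whereas its partner in that step, Cdc6, was 2-fold higher (0.42 and 2.01 FPKM). Pclaf, a PCNA-associated factor (1.95 and 13.3 FPKM), and Mxd3, a MAX-binding repressor (2.24 and 15.3 FPKM), were outside the list and among the 12 highest ratios of named genes, taken over genes with at least 5 FPKM in the higher library. Of 22 genes in the list of cell cycle brakes and p53 targets, 0 were higher and 3 lower, with a median of -0.27. These counts are near the 4.11% and 9.46% over all genes. The lower genes were Gadd45a (43.1 and 12.1 FPKM), Sesn2, which the ATF4 list also holds (14.1 and 4.27 FPKM), and Ccnd2. Ccnd2 (29.30 and 14.54 FPKM) was within 2-fold relative to the median of all genes, and it encodes cyclin D2, which is not a brake.

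The E2F element TTTNGCGC on either strand was in the window of 6 of the 29 proliferation genes that had one (20.7%), against 3.02% of the compared genes and 1.38% of all windows. The window of Cdt1, the 1 gene of the list below 0, also held it. Many genes of the list are known targets of E2F, so the share describes the list rather than the pair. Mcm5, with the largest ratio, and Cdk1, the mitotic kinase gene (8.67 and 22.7 FPKM), are shown, Mcm5 at chr8:75109315-75109404 on the + strand and Cdk1 at chr10:69352995-69353084 on the - strand.
Mcm5: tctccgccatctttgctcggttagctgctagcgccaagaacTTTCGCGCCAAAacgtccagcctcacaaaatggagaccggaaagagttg
Cdk1: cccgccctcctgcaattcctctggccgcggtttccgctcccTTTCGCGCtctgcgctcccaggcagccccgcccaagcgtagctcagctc
In Mcm5 the capitals are 2 matches, on opposite strands, that overlap.

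Core histone genes took 7 of the 12 highest ratios, from few reads. The clustered histone genes, a list chosen after its values were seen, are made in S phase and their mRNAs mostly lack a poly(A) tail. Of 29 compared, 22 were 2-fold higher with TSH and 1 lower, against 4.11% and 9.46% of all genes. The median level of the 29 was 0.43 FPKM without and 2.89 FPKM with TSH. Most thus passed the filter of 1 FPKM only through the library with TSH, so the count is no result about the list. Counts of these genes summed to 419 without and 1653 with TSH. H2ac13 had 0 and 134 counts (at least 44.1-fold higher), H2bc11 0 and 68 counts (at least 22.5-fold higher), and H2ac11 3 and 130 counts. These bounds set the floor of 3 counts in the library at 0. H2ac7 was at 0.30 and 8.25 FPKM, H3c10 at 0.43 and 5.09 FPKM, H3c2 at 0.78 and 5.70 FPKM, and H2bc12 at 2.38 and 13.7 FPKM. The list median was 2.48, or 2.30 with the 8 genes at 0 in 1 library set to their bound. It was 0.85 over the 10 genes with at least 10 counts in both libraries, of which 4 were higher. Histone copies are nearly identical in sequence, so the assignment of reads among them is uncertain. The ratios also varied with transcript length. Genes in the lowest of 4 equal groups by transcript length (55 to 1640 bases) had a median of -0.07, with 7.24% at least 2-fold higher and 7.61% lower. Those in the longest (3791 bases and over) had a median of -0.29, with 2.21% higher and 10.03% lower. The part of length in the histone values was not tested. The tubulin genes, also chosen after their values were seen, gave 3 of 11 higher and 0 lower, beside 4.11% and 9.46% of all genes. Relative to the median of all genes 5 were higher. Their median was 0.71, led by Tubb4b (157 and 393 FPKM).

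Many glycolysis and hypoxia response genes were higher with TSH, some of them among the most abundant RNAs of these cells. Of 34 compared, 14 were 2-fold higher (19 relative to the median of all genes), against 4.11% of all genes, and 0 lower, with a median of 0.87. Gapdh was at 7899 FPKM without and 17969 FPKM with TSH, the highest level of any gene past 2-fold. Tpi1, the triosephosphate isomerase gene, was at 865 and 2527 FPKM, Pgk1 at 1541 and 3186 FPKM, and Aldoc at 5.11 and 22.6 FPKM. These are enzymes of the pathway itself. Egln1, an oxygen-sensing hydroxylase that HIF induces, was at 13.4 and 51.7 FPKM and Car9, the carbonic anhydrase of hypoxic tumors, at 17.9 and 39.0 FPKM. Hif1a, the transcription factor gene, was not among them, at 5.67 and 2.87 FPKM (log2 ratio -0.96), and Hk2 and Vegfa were near equality (3.74 and 3.64 FPKM, 25.8 and 28.5 FPKM).

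Of 30 cholesterol and fatty acid synthesis genes 6 were higher and 0 lower, against 4.11% and 9.46% of all genes (median 0.48). Insig1, the sterol sensor partner, was at 3.14 and 9.14 FPKM, and Fdft1, the squalene synthase gene, at 13.7 and 34.7 FPKM. Soat2, which esterifies cholesterol and lies outside the list, had the lowest ratio after the microRNA genes among the named genes with at least 5 FPKM, at 8.84 and 0.51 FPKM (578 and 33 counts, 14.7-fold lower). Of 24 NRF2 targets and metallothioneins 6 were higher and 1 lower, beside the same shares over all genes (median 0.46). Those higher were Mt1 (96.3 and 269.7 FPKM), Mt2 (39.0 and 125 FPKM), Nqo1 (15.3 and 44.0 FPKM), Gstm1 (275 and 669.8 FPKM), the ferritin gene Ftl1 (3727 and 8987 FPKM) and Gsta1, from 6 and 43 counts. The lower member was Slc7a11, which is also an ATF4 target.

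Of 22 class I and antigen processing genes, 18 were within 2-fold, 4 were higher (8 relative to the median of all genes) and 0 lower, against 4.11% higher and 9.46% lower of all genes, with a median of 0.55. The immunoproteasome subunit genes Psmb9 (2.99 and 10.9 FPKM), Psmb8 (2.96 and 8.53 FPKM) and Psmb10 (17.9 and 47.6 FPKM) were higher, with Calr. Tap1, of the peptide transporter, was at 7.35 and 13.5 FPKM and B2m at 573 and 897 FPKM. The heavy chain genes H2-D1 (405 and 355 FPKM), H2-K1 (157 and 165 FPKM) and H2-L (146 and 138 FPKM) differed little, and H2-K2 was at 3.28 and 5.86 FPKM. NKG2D ligands were low in both. Raet1e was at 7.77 and 6.46 FPKM, Raet1a at 0.90 and 0.59 FPKM and Ulbp1 at 0.74 and 1.56 FPKM (41 and 88 counts). Relative to the median of all genes, Ulbp1 and H2-K2 were 2-fold higher. H60a had 0 and 3 counts, H60b 0 and 1, and Raet1b, Raet1c, Raet1d and H60c 0 in both libraries, which allows up to 3 counts per library, or 0.0986 and 0.0977 CPM (counts scaled to library size). Class I and Raet1 genes are close copies, and reads may be shared among them.

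Of 18 chemokine and cytokine genes 7 were lower with TSH and 1 higher, against 9.46% and 4.11% of all genes (median -0.53), but relative to the median of all genes 2 were lower and 2 higher. Cxcl2, a neutrophil chemokine, was at 9.57 and 1.99 FPKM, and Csf2 (GM-CSF) at 4.56 and 1.02 FPKM. Lif was at 17.7 and 7.91 FPKM and Csf1 (M-CSF) at 395 and 179 FPKM. Ccl5 was the member 2-fold higher, at 11.67 and 24.03 FPKM. Interferon-stimulated genes had 1 of 22 higher (Gbp2, 3.69 and 10.1 FPKM), near the 4.11% over all genes, 0 lower and a median of 0.01.

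Noncoding host genes of small nucleolar RNAs split. The list was chosen after its values were seen, and of 15 genes 8 were 2-fold lower and 4 higher with TSH (median -1.03), against 9.46% and 4.11% of all genes. Their spliced RNAs are known to be degraded during translation. Snhg16 was at 106 and 14.4 FPKM (2812 and 389 counts), Snhg17 at 6.93 and 0.80 FPKM, Snhg12 at 176 and 25.9 FPKM and Zfas1 at 303 and 90.4 FPKM. The 4 higher ones, Snhg3, Snhg4, Snhg10 and Snhg20, were low, at 4.23 FPKM or less in both libraries. Short RNA genes took further places among the 12 lowest ratios, on few counts. Mir686 had 119 and 0 counts (at least 40.1-fold lower), Mir5114 10 and 0, Mir671 12 and 0, and Rnu7 8 and 1. A standard mRNA library does not measure mature miRNAs, so these values count longer RNA at the loci. Car6, a secreted carbonic anhydrase (5.90 and 0.52 FPKM), and Cox6a2, a muscle-type respiratory chain subunit (17.1 and 1.92 FPKM), were also among the 12 lowest, as were Soat2, Fgf21, Egr1 and Cth, whose values are given above. Among the 12 highest were Crip1, a small LIM protein (13.5 and 100.2 FPKM), Spon2, a secreted matrix protein (0.62 and 5.87 FPKM), and Rps27rt, a processed copy of Rps27, which had 0 and 84 counts (at least 27.9-fold higher) and whose reads may belong to its parent. The abundant genes past 2-fold on the higher side also included Vim (1478 and 3406 FPKM), a filament of mesenchymal cells, and S100a11 (1025 and 2526 FPKM).

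Of 13 circadian clock genes compared 4 were lower and 1 higher, against 9.46% and 4.11% of all genes, but relative to the median of all genes 3 were lower and 3 higher, and the list median was 0.19. Arntl, the BMAL1 gene, was at 7.41 and 1.81 FPKM, Ciart at 3.11 and 0.68 FPKM, Cry1 at 6.10 and 2.51 FPKM and Nfil3 at 58.5 and 26.0 FPKM. Dbp, a clock output factor, was at 4.09 and 11.6 FPKM. Among 30 TGF-β and BMP genes 5 were higher (4.11% of all genes), Id3 (25.3 and 65.0 FPKM), Smad6 (0.84 and 2.30 FPKM), Inhba (6.73 and 17.2 FPKM), Ccn2 (22.3 and 52.5 FPKM) and Tgfbi (1.33 and 3.14 FPKM), and Bmp2 was lower (5.73 and 1.85 FPKM). Ccn2 is also a target of YAP, of whose 17 genes it was the 1 higher, while Ankrd1 (325 and 149.8 FPKM) and Tead4 (2.17 and 0.77 FPKM) were lower. Ctnnb1 was at 59.3 and 73.8 FPKM in the BVE pair and at 118 to 196 FPKM in the libraries labelled BVE-Ctnnb1null; a sum over all exons does not check a deletion of some of them. Of 21 Wnt and β-catenin genes 1 was higher (Wnt9a) and 3 lower (Myc, Gsk3b and Nkd1). The counts for the YAP, Wnt, matrix, integrin and mesenchymal lists are few, and those of YAP, matrix and integrin genes are near the shares over all genes (4.11% higher and 9.46% lower). Matrix genes beyond the collagens gave 1 of 35 higher and 4 lower, the latter Spp1 (71.2 and 22.1 FPKM), Serpinf1 (281 and 109.6 FPKM), Mmp13 and Lama3. Integrin genes gave 1 of 10 lower (Itga7, 5.33 and 2.61 FPKM) and mesenchymal genes 2 of 17 higher (Vim and S100a4, the latter at 321 and 1147 FPKM). After the median of all genes was subtracted, 0 integrin genes were 2-fold lower and 1 was higher (Itga11, 1.42 and 2.84 FPKM). Relative to the median of all genes, Nfil3, Ankrd1, Gsk3b, Nkd1, Lama3, Itga7, Lif, Csf1, Tnfrsf12a, Atf6 and Ddit3 were within 2-fold.

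None of 74 cytosolic ribosomal protein genes (median 0.01), 49 nuclear genes of the respiratory chain (median 0.09), 25 lysosome genes (median 0.00), 16 collagen genes (median 0.05), 14 heat shock genes (median 0.27) or 9 insulin and IGF genes (median -0.48) passed 2-fold, against 13.6% of all genes. For the lists of 9 to 16 genes, a count of 0 says little at that share. Cox6a2, the muscle-type subunit given above, was not in the respiratory chain list and was 8.51-fold lower with TSH. Relative to the median of all genes 3 respiratory chain genes (Ndufb3, Ndufa3 and Cox6b1), 1 ribosomal (Rpl37a), 1 collagen (Col5a3) and 1 IGF gene (Igfbp6) were 2-fold higher. The first 4 of these medians are 0.20 to 0.29 above the median of all genes. Chromosomes did not differ much, the medians of the 20 with at least 100 genes lying between -0.30 and -0.08. Xist had 16 counts without and 5 with TSH, and the Y-linked genes of the list had 0 in both. The 13 genes of the mitochondrial genome were not listed in any of the 5 libraries, so their level cannot be read here.

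The labels give a TSH status for 1 of the null lines, replicate 1, so the 5 libraries are set side by side here with no order by TSH. Relative to BVE with TSH, the median of the ATF4 genes was 1.53 in BVE without TSH and -0.62 in null replicate 1, which is labelled as without TSH. It was -0.40 in null replicate 2 and 1.05 in null replicate 3, while the median of all genes compared was 0.20 in BVE without TSH and 0.44, 0.54 and 0.56 in the null lines. Asns, for example, was at 39.7, 84.6 and 345 FPKM in null replicates 1, 2 and 3, and Atf4 at 47.2, 88.4 and 339 FPKM. BVE without TSH was the highest of the 5 libraries for 18 of the 29 ATF4 genes, against 11.3% of all genes. The proliferation genes stood at -1.33 in BVE without TSH and at -0.06, 1.05 and 0.65 in the null lines, and BVE without TSH was the lowest of the 5 for 33 of 36, against 14.6% of all genes. For glycolysis BVE with TSH was the highest of the 5 for 22 of 34 genes, against 7.68% of all. ERK output genes stood at 1.17 in BVE without TSH and at 1.45, 2.01 and 0.44 in the null lines. The value in null replicate 3 was thus below the median of all genes there (0.56), so which library was lowest depended on the scaling. These counts share the BVE libraries, and the null lines differ from BVE in genotype, passage and origin as well.

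**Figure D5:**
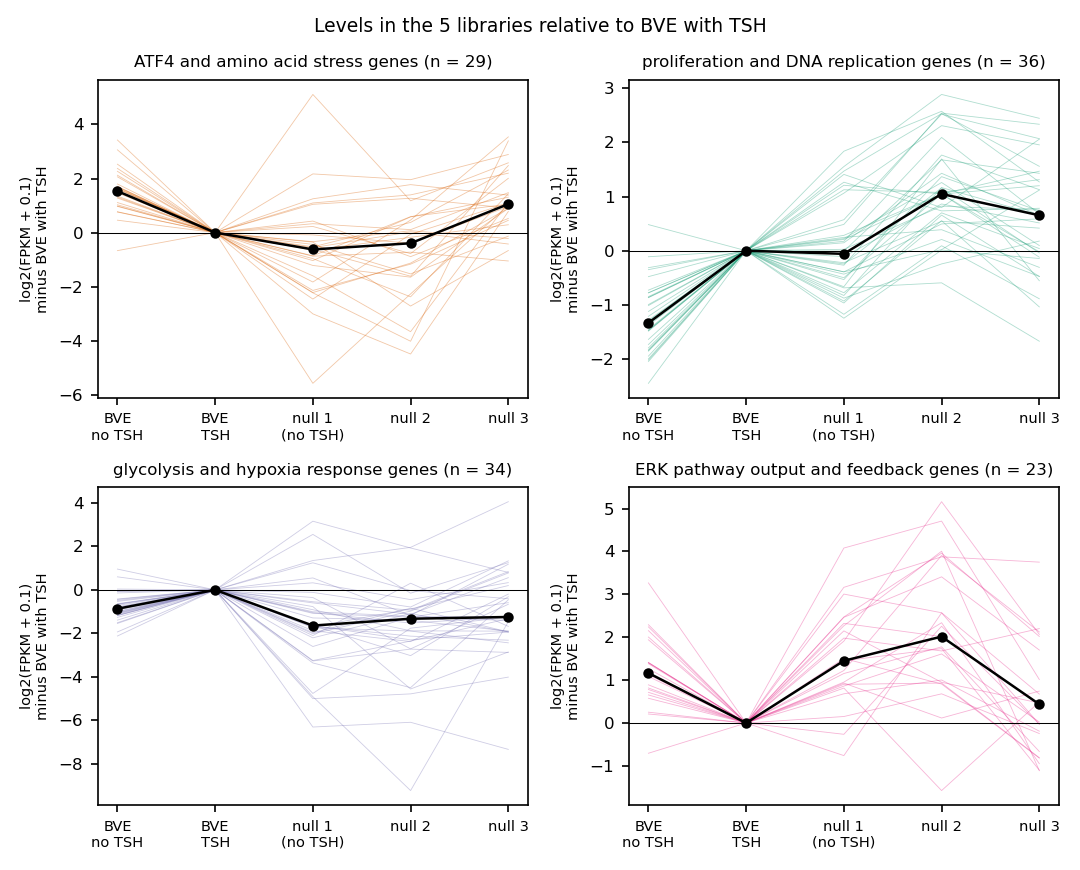
Levels in the 5 libraries, as log2(FPKM + 0.1) minus the value in BVE with TSH, for 4 gene lists; thin lines are genes and black points the list median. BVE without TSH is highest for the ATF4 genes (1.53) and lowest for the proliferation genes (-1.33).

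Transcript use was described for the 1184 genes with several transcripts, at least 5 FPKM and 200 counts in both libraries. The median of the largest change in a transcript's share was 6.42 percentage points, and 174 genes changed by at least 20 points. The 5 largest changes were in Msantd3, Pdgfrb, Sypl, Ctc1 and Vipas39. In Pdgfrb, a transcript of 5413 bases took 78.4% of the gene's FPKM without TSH and 0% with TSH, the rest going to a transcript of 5410 bases. In Vipas39 a transcript of 2552 bases went from 24.9% to 91.9%, beside one of 2495 bases. Transcripts of the same gene may share many reads, which was not measured here, and the split between them is an estimate with no replicate.

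A count model could lend the pair a spread only from elsewhere. With the 3 null lines as replicates of their own group, edgeR's quasi-likelihood test called 0 of 14385 genes between the BVE libraries at a Benjamini-Hochberg adjusted p of 0.05 (lowest adjusted p 1). At an unadjusted p of 0.05 it gave 8 genes higher and 4 lower, and DESeq2 gave 0 adjusted calls and 35 higher and 22 lower. The dispersion in that fit was 0.714, which is the spread between separate null lines and not that between cultures of 1 line. The 2-fold counts above therefore describe 2 libraries and are not calls of a replicated test.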

How the data were processed

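RNA-seq of mouse thyroid tumor cell lines was analysed from the deposited transcript tables. Per the labels, libraries were made with an Illumina TruSeq kit. The authors deposited, per transcript, expected counts and FPKM, listed from 0.01 FPKM up. The aligner, counter, genome build and annotation were not given in the sources used here. Both values were summed per NCBI gene number, and 17866 of 17923 genes listed were named from RefSeq (GRCm38.p6), 10 from the supplement and 47 not. Genes with at least 1 FPKM in the higher BVE library were compared by log2 ratio with 0.1 added, and differences of 2-fold were counted without a test. The comparison members and the 39 gene lists were chosen with earlier results of these data known, and 5 lists by symbol were added after their values were seen. Named genes were the 12 highest and 12 lowest ratios at 5 FPKM or more, the 6 most abundant past 2-fold in each direction, up to 4 per list with the largest ratios, thyroid, NKG2D and class I genes, and the 5 largest transcript share changes; further list members were picked after their values were seen. Totals were 30432737 and 30713079 counts for BVE and 29360002 to 29929677 for the null lines. Expected counts were rounded for edgeR 4.0.16 (all 5 libraries in 3 groups) and DESeq2 1.42.0 in R 4.3.3; ratios used Python 3.11.15, pandas 2.3.3 and scipy 1.17.1. Counts were simulated for the BVE pair with read sampling (Poisson) alone and no spread between cultures. On them the ratio recovered 99% of 200 genes changed by 1.5 log2 units among 9613, with 19 false calls. These figures are not an error rate of the 2-fold counts in the real pair. Counts were also simulated for the 3-group fit on 14385 genes, with 200 genes changed by 2 log2 units. Of these edgeR recovered 91% at a dispersion of 0.01, and 0% at 0.71. Alternatives to the added value, filters, scaling, gene summary and threshold were run.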

Additional observations from a re-analysis of the deposited data

How the results depend on the processing

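The counts of genes higher and lower with TSH (395 and 909) stayed within 1.5 times with 0.01 added to FPKM, at least 10 counts in both libraries, CPM, the most abundant transcript alone, and a counting interval off 0. Adding 1 to FPKM gave 258 and 481, every gene listed 680 and 1385, genes of at least 5 FPKM 234 and 512, TMM scaling 597 and 561, centring on the median 597 and 542, and a 4-fold threshold 66 and 99. Under these settings 0 genes were called in the opposite direction, but all of them reuse the same 2 libraries. A changed added value, filter or common scaling could hardly reverse a gene past 2-fold, so this count says little. Of the list medians over 9 settings, 269 stayed within the counting error of their genes, 96 moved by more, and 2 reversed: the leukocyte markers (1.21 over 3 genes) gave -0.33 with every gene listed and -0.36 at 5 FPKM, since other genes then enter or leave. Smaller medians changed sign with TMM or centring (endoplasmic reticulum chaperone, matrix, mesenchymal, fibroblast, endothelial, adipocyte and muscle, and lysosome genes) or with a filter (heat shock, collagen, TGF-β, NKG2D, interferon-stimulated and insulin genes). No named gene past 2-fold reversed under the settings run, with the same limit. The edgeR count was 0 with each null line left out (0 to 0), no filter, at least 10 counts in both BVE libraries or DESeq2 size factors, and 0 with DESeq2. On simulated counts at this spread (dispersion 0.71), edgeR recovered 0% and DESeq2 5.5% of 200 changed genes, DESeq2 with 189 false calls, so these counts of 0 say little of the pair. No paired analysis was possible because each side held 1 library. Floors of 3 counts and counting intervals cover read sampling alone.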
